A study of Mus musculus with 10 samples.

Results

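The genes described here are 34 genes of the cell cycle and of DNA replication, picked by name, out of 55450 genes in a count table of mouse corneal endothelium. They were divided by role into 9 genes of G1 and of entry into S phase, 10 genes of DNA replication and 15 genes of the mitotic program. The study compared peelings of corneal endothelium, a monolayer that lines the inner face of the cornea, from Slc4a11-/- mice (KO) and Slc4a11+/+ mice (WT). All mice were of strain C57BL/6 and were 12 weeks old, and the labels name no agent for either genotype. There were 5 libraries per genotype, and each pooled the 6 peelings of 3 animals, so errors and p-values reflect differences among pools, not among single mice. The values below are CPM, read counts relative to the scaled total of each library, and a change was called at an adjusted p under 0.05 in the edgeR quasi-likelihood test over 17729 genes.

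A cell that leaves rest makes D-type cyclins, which activate the kinases Cdk4 and Cdk6. These kinases release E2F factors from the retinoblastoma protein, and E2F then switches on genes for DNA synthesis, among them the MCM helicase that is loaded at replication origins. Mitotic genes are switched on later, in G2, and most are silent in resting cells, which is why Mki67 or Top2a serve as markers of dividing cells. Corneal endothelial cells are known to rest in G1 and to divide very little in the adult, whereas basal cells of the corneal epithelium, at the front of the cornea, divide throughout life.

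Several facts about the libraries bear on all results below. Slc4a11 stood at 3490 to 4360 CPM in the WT libraries and at 70.1 to 114 CPM in the KO libraries, as the labels call for. Total counts ranged from 36026193 to 51008996. Of the genes listed here as markers of corneal endothelium, the water channel Aqp1 and the carbonic anhydrase Car3 were the most abundant per kilobase of exon. They stood at 11490 ± 1184 and 9950 ± 1230 CPM (SD, WT, n = 5), and the lowest of the list, Grip1, at 7.479 ± 1.965 CPM. The peelings also held keratocyte transcripts at a high level, with Dcn, a proteoglycan of the stroma, at 28010 ± 3536 CPM in WT. Epithelial transcripts set some KO libraries apart. The summed level of 22 epithelial markers was 77.6 to 254 CPM in WT, 83.5 in KO 3, 299 in KO 4, 733 in KO 2, 2360 in KO 1 and 4470 in KO 5. Of these 22 markers, 14 were called higher in KO. Krt12, a keratin of the corneal epithelium, was at 4.66 to 67.9 CPM in WT and at 540, 221, 2.87, 50.5 and 1690 CPM in KO 1 to KO 5. Results are therefore also given from KO 3 and KO 4 alone against the 5 WT libraries. KO 4 was not free of the excess, with 13 of the 22 markers above all WT libraries, where 24.3% of all genes tested were. The median log2 difference of the 22 markers from the WT mean was 1.054 in KO 4 and -1.467 in KO 3, against -1.615 to 1.14 in WT.

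Promoter sequence from RefSeq (GRCm38.p6) was at hand for 27 of the 34 genes, and the 250 bases before the RefSeq start site are printed for 6 that were called higher. Of the called replication genes, Mcm4 had no window. Where the table held 2 windows for a gene (Mcm7 and Ccnd3), the first with at most 30 annotated exon bases was used, or the first listed where none had so few. They are shown because E2F sites and the cell cycle homology region (CHR) are the known control elements of replication and of mitotic genes. In the first 3, which belong to replication genes, capitals mark matches to the E2F words TTTCCCGC, TTTGGCGC, TTTCGCGC or TTTGCCGC on either strand, where 2 matches may overlap.
Mcm7, chr5:138171267-138171516, minus strand: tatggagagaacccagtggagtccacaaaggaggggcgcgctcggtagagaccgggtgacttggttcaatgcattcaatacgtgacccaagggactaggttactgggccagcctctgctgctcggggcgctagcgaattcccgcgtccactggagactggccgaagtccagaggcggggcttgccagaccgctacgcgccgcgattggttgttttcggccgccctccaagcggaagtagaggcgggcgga
Mcm5, chr8:75109259-75109508, plus strand: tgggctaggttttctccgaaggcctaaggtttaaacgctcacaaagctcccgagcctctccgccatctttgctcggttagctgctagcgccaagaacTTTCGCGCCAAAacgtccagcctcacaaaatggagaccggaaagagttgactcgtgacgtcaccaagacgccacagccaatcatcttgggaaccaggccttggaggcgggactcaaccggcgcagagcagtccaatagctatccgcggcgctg
Rrm2, chr12:24708004-24708253, plus strand: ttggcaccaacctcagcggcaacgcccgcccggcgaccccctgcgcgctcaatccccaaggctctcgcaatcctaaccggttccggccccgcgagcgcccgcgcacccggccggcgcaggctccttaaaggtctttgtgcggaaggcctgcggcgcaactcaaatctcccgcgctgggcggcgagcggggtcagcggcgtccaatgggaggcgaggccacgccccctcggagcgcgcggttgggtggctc
Mcm5 held 2 overlapping E2F matches, 153 and 149 bases before the start, and the printed windows of Mcm7 and Rrm2 held 0. The other window of Mcm7, which lies in annotated exons and is not printed, held an E2F word. In the next 3 windows, which belong to mitotic genes, capitals mark the CHR word TTTGAA on either strand, and the 1 E2F match of Cdk1 is left in lower case.
Cdc20, chr4:118437344-118437593, minus strand: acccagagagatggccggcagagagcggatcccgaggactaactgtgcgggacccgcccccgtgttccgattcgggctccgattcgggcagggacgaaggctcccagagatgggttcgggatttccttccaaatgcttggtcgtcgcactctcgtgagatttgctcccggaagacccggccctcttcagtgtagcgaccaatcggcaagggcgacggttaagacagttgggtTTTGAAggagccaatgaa
Cdk1, chr10:69352913-69353162, minus strand: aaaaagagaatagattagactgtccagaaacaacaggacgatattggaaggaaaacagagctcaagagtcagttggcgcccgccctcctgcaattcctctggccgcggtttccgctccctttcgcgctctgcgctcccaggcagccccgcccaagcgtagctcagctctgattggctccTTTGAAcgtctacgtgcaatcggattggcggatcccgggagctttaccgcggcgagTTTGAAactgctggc
Birc5, chr11:117848987-117849236, plus strand: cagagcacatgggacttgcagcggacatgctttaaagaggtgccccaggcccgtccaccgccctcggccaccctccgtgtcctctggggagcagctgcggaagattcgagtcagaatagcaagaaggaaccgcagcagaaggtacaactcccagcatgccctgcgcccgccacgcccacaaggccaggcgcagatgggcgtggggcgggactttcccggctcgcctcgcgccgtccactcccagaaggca
Cdk1 held the CHR word at 71 and 15 bases before the start and Cdc20 at 18 bases, while Birc5 had no match. The GENCODE annotation places exon bases in 3 of these windows (26 in Cdk1, 13 in Rrm2, 9 in Cdc20), and the Cdk1 match at 15 bases lies in annotated exon. Counting 1 window per gene, the CHR word stood in 6 of 12 mitotic, 1 of 9 replication and 0 of 6 G1 genes, against 16% of all 32851 windows. An E2F word stood in 1 of 12 mitotic, 2 of 9 replication and 1 of 6 G1 genes, against 1.86% of all windows, and in 3 of 9 replication genes when the other Mcm7 window was counted. The CCAAT box, CCAAT on either strand, stood in 11 of 12 mitotic, 8 of 9 replication and 1 of 6 G1 genes (2 of 6 with the other Ccnd3 window), against 33.8% of all windows. These windows were not matched on base composition or gene type, and a match is a description of letters, not a site.

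Of the 34 genes, 30 had enough counts to be tested, 9 rose in KO, 1 fell and 20 did not pass. Of all genes tested, 7.59% rose and 7.73% fell. By class, 2 of 9 G1 genes rose and 1 fell, 4 of 10 replication genes rose and none fell, and 3 of 11 tested mitotic genes rose and none fell. At an unadjusted p under 0.05 in the edgeR test, 7 replication genes were higher and 0 lower, and 5 mitotic genes were higher and 0 lower, where 15.4% of all genes tested were higher and 15.7% lower. DESeq2 called 5 replication genes higher and 0 lower and 6 mitotic genes higher and 0 lower, where it called 9.51% of all genes higher and 9.83% lower. Its mitotic calls include Ube2c and Aurkb, which are not among the 11 genes tested by edgeR. The median log2 fold change was 0.03 for G1, 0.22 for replication and 0.68 for mitotic genes, against 0.00 for all genes tested. Per kilobase of exon, median WT levels of the tested genes were 1.64 CPM for G1, 1.5 CPM for replication and 0.102 CPM for mitotic genes, against 3.36 CPM for all genes tested. In bulk RNA, more or fewer cells of a type and more or less RNA per cell cannot be told apart.

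**Figure D1:**
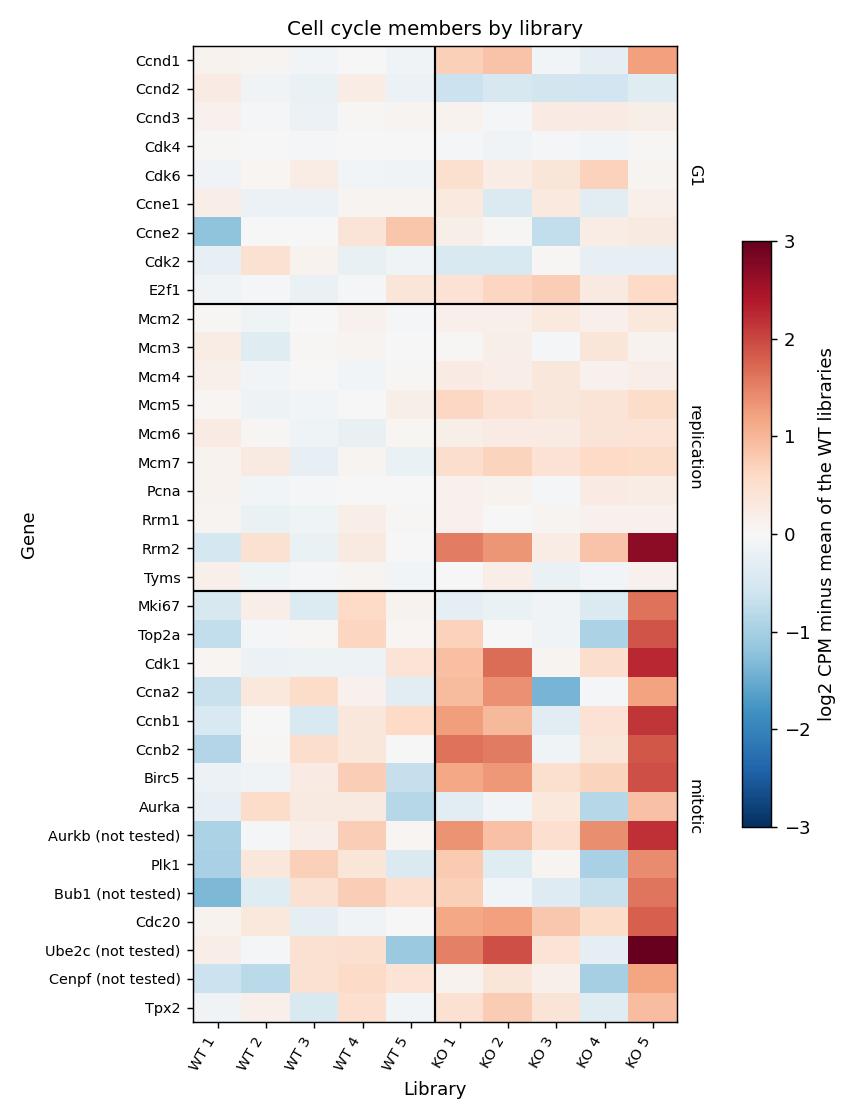
Heat map of log2 CPM (prior count 2) minus the mean of the 5 WT libraries, for all 34 genes (rows, grouped by class) in the 10 libraries (columns); red is higher and blue lower, and genes marked as not tested had too few counts. Replication genes are mostly pale red in all KO libraries, whereas mitotic genes are mostly dark red in KO 5, mostly red in KO 1 and KO 2, and mixed in KO 3 and KO 4.

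Among the 10 replication genes, 4 rose and 6 did not pass. The median difference of the 10 genes from the WT mean, on the log2 scale, was 0.16 in KO 1, 0.19 in KO 2, 0.23 in KO 3, 0.30 in KO 4 and 0.28 in KO 5, and lay between -0.11 and 0.10 in the WT libraries. The 6 Mcm genes, which encode the subunits of the replicative helicase, summed to 46.2 to 53.6 CPM in WT and to 58.0, 58.3, 58.5, 59.2 and 60.3 CPM in KO 1 to KO 5. For this sum, which was chosen after the values were seen, the groups did not overlap. The sum of all 10 replication genes did overlap between genotypes. It was 123, 106, 108, 117 and 114 CPM in WT 1 to WT 5. In KO 1 to KO 5 it was 129, 128, 122, 132 and 136 CPM, so KO 3 lay below WT 1.

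Mcm7, one of the helicase subunits, stood at 5.78, 6.46, 4.49, 5.64 and 4.66 CPM in WT 1 to WT 5 and at 7.73, 8.51, 7.21, 8.16 and 7.82 CPM in KO 1 to KO 5. Every KO library was above every WT library. It rose 1.46-fold (log2 fold change 0.55, SE 0.11; edgeR adjusted p = 0.0063). Of the 34 genes, 12 share exon bases with a gene on the other strand. Mcm7 shares 321 exon bases with Ap4m1 and 64 with Cops6 on the other strand, and the sources used here do not give whether strand entered the counting. Ap4m1 was at 9.79 CPM in WT and 9.40 in KO, and Cops6 at 71.7 and 82.9 CPM. A near-identical copy of Mcm7, Gm5487, was at 0.271 CPM in WT and 0.476 in KO.

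Mcm5, another subunit, stood at 4.14, 3.55, 3.76, 3.92 and 4.48 CPM in WT and at 6.13, 5.37, 5.06, 5.15 and 5.85 CPM in KO. The groups did not overlap, and Mcm5 rose 1.39-fold (log2 fold change 0.47, SE 0.10; edgeR adjusted p = 0.0084). Mcm4 (chr16:15623897-15637400, GRCm38) stood at 16.7, 14, 14.7, 14.1 and 15.1 CPM in WT and at 17.7, 17.0, 18.8, 16.3 and 17.0 CPM in KO. Only WT 1 reached into the KO range, and Mcm4 rose 1.16-fold (log2 fold change 0.22, SE 0.07; edgeR adjusted p = 0.040). It was no longer called on omission of WT 2, WT 3, WT 4, WT 5, KO 1, KO 2 or KO 3 (log2 fold change 0.19 to 0.26 over all single omissions, edgeR adjusted p up to 0.0948), whereas Mcm5 and Mcm7 were called without any single library.

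The other 3 subunits did not pass. Mcm2 had no overlap between groups, with 8.18 to 9.87 CPM in WT and 9.92 to 11.2 CPM in KO, at a log2 fold change of 0.21 (SE 0.07; edgeR adjusted p = 0.070). Across all genes tested, 5.88% had every KO library above every WT library. Mcm6 was at 0.28 (SE 0.10; edgeR adjusted p = 0.064) and was called by DESeq2 (adjusted p = 0.0346) and, by edgeR, without WT 1 (0.35, adjusted p = 0.0208). Mcm3 was at 0.12 (SE 0.12; edgeR adjusted p = 0.51), with WT 2 the lowest library at 4.98 CPM.

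The remaining replication genes act around the fork or supply nucleotides. Pcna, the sliding clamp of the polymerases, was at 35.0 ± 1.61 CPM over the WT pools and 38.5 ± 3.09 CPM over the KO pools (SD, n = 5; edgeR adjusted p = 0.15), and was called without KO 3 (log2 fold change 0.18, adjusted p = 0.0446). A near-identical copy, Pcna-ps2, was at 4.49 and 5.21 CPM. Rrm1, the large subunit of ribonucleotide reductase, was at 22.9 ± 2.53 and 24.5 ± 0.875 CPM (edgeR adjusted p = 0.42). Tyms, thymidylate synthase, was at 6.92 ± 0.586 and 6.96 ± 0.763 CPM (edgeR adjusted p = 0.96). Its KO range, 6.04 to 7.9 CPM, enclosed the WT range, 6.28 to 7.69 CPM. A stretch of 355 bases of Tyms was near-identical in Reep3 (180 CPM in WT, 159 in KO). The same held for a stretch of 357 bases in Map3k2 (46.9 CPM in WT, 39.4 in KO).

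Rrm2, the small subunit of ribonucleotide reductase, was uneven between the KO libraries. It stood at 0.136, 0.313, 0.182, 0.272 and 0.217 CPM in WT and at 0.715, 0.611, 0.261, 0.429 and 1.63 CPM in KO 1 to KO 5, on 5 to 69 counts a library. KO 5, KO 1 and KO 2 were highest and KO 3 lay within the WT range, and the sum of the mitotic genes below was highest in the same 3 libraries. Rrm2 rose 3.19-fold (log2 fold change 1.68, SE 0.46; edgeR adjusted p = 0.028). With KO 3 and KO 4 alone its log2 fold change was 0.59 (edgeR adjusted p = 0.47). The call was also lost without WT 1, WT 3, WT 5 or KO 1, and the log2 fold change was 1.147 to 1.892 over all single omissions (edgeR adjusted p up to 0.0689).

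**Figure D2:**
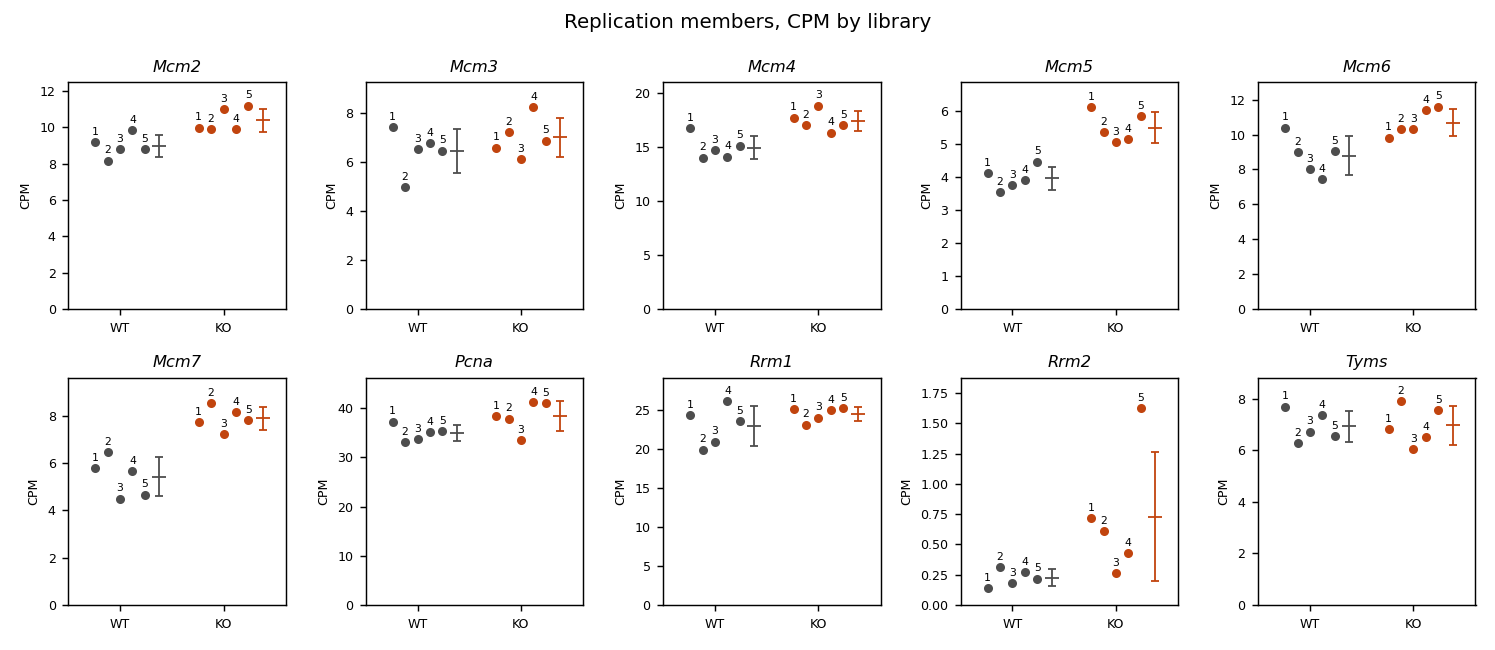
CPM of the 10 replication genes in each library (points, numbered by library within genotype; WT grey, KO orange) with the group mean and SD (bars, n = 5); the vertical axes start at 0 and differ between panels. Mcm2, Mcm5 and Mcm7 show no overlap between genotypes, and the KO points of Rrm2 spread from 0.261 to 1.63 CPM.

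Mitotic genes were scarce everywhere and uneven between KO libraries. The 15 genes together summed to 3.93 to 7.25 CPM in WT. They summed to 18.4 CPM in KO 5, 9.94 in KO 2 and 9.35 in KO 1, and to 5.69 in KO 3 and 4.97 in KO 4, which lie within the WT range. In KO 5, 15 of 15 genes were above the highest WT library, in KO 1 10 and in KO 2 9, against 3 in KO 4 and 1 in KO 3. Of the 11 tested mitotic genes alone, the counts were 11 in KO 5, 8 in KO 1, 7 in KO 2, 2 in KO 4 and 1 in KO 3. Of all genes tested, 30.1% were above the highest WT library in KO 5, 24.2% in KO 1, 23.7% in KO 2, 24.3% in KO 4 and 21.7% in KO 3. Below the lowest WT library were 4 mitotic genes in KO 4 (3 of the 11 tested), where 25.5% of all genes tested were. The count was 1 in KO 3 (20.4%), and 0 in KO 1 (22.4%), KO 2 (22%) and KO 5 (29.9%).

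KO 1, KO 2 and KO 5 were also the libraries with the most epithelial transcripts, and the part of epithelial cells in the mitotic values was not tested. Summed epithelial markers were 4470 CPM in KO 5, 2360 in KO 1 and 733 in KO 2, and at most 299 CPM in any other library. In WT 1 to WT 5 the epithelial markers summed to 169, 254, 207, 106 and 77.6 CPM. The mitotic sums of the same WT libraries were 3.93, 5.86, 5.62, 7.25 and 5.06 CPM. Values of the other marker lists were as follows. Immune markers, 1 of 11 tested called higher, summed to 616 CPM in KO 2 and 531 in KO 5, against 302 to 459 CPM in WT and 376 to 421 CPM in the other KO libraries. Nerve sheath markers, 4 of 6 called higher, summed to 58.8 to 67.0 CPM in WT and to 81.5 to 117 CPM in KO, highest in KO 2. Keratocyte markers summed to 62200 to 94400 CPM in WT and 65200 to 87500 CPM in KO, markers of corneal endothelium to 37100 to 41500 and 32100 to 38700 CPM, and pigment markers to 11.4 to 17.3 and 13.3 to 24.7 CPM. The lowest sum of corneal endothelium markers, 32100 CPM, was that of KO 5. Their median log2 difference from the WT mean was -0.485 in KO 5 and -0.086 to 0.027 in the other KO libraries. Of 12 keratocyte markers 1 was called higher and 2 lower, and of 12 markers of corneal endothelium 3 were called lower, Slc4a11 among them. Vessel markers summed to 102 to 153 CPM in WT and 81.5 to 104 CPM in KO, of which Kdr alone made up 120.8 ± 18 and 84.2 ± 9.08 CPM (SD, n = 5) and fell (edgeR adjusted p = 0.0058). The other 5 vessel markers tested were above 0 in log2 fold change, and Plvap rose (log2 fold change 1.18, SE 0.24; edgeR adjusted p = 0.0070). The median log2 difference of the 6 vessel markers from the WT mean was 1.495 in KO 2, 1.44 in KO 5, 0.95 in KO 4, 0.43 in KO 1 and 0.41 in KO 3. No gene of these lists was at 0 in all libraries.

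**Figure D3:**
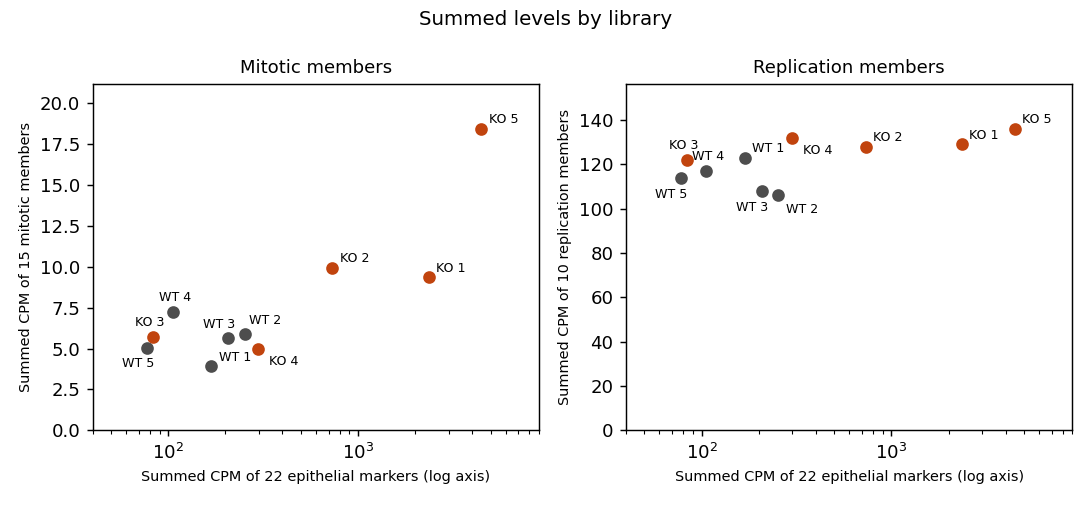
Summed CPM of the 15 mitotic genes (left) and of the 10 replication genes (right) against the summed CPM of 22 epithelial markers (log axis), 1 point per library. On the left KO 5, KO 2 and KO 1 lie above all other libraries and KO 3 and KO 4 lie among the WT libraries; on the right KO 4 lies near KO 1, KO 2 and KO 5, and KO 3 (122 CPM) is just under WT 1 (123 CPM).

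Cdc20, the activator of the anaphase-promoting complex, was the mitotic gene with the smallest p. It stood at 0.518, 0.604, 0.387, 0.440 and 0.474 CPM in WT and at 1.12, 1.18, 0.869, 0.725 and 1.78 CPM in KO. Every KO library was above every WT library, KO 3 and KO 4 included. Cdc20 rose 2.34-fold (log2 fold change 1.23, SE 0.25; edgeR adjusted p = 0.0065) and was called without any single library. With KO 3 and KO 4 alone it was at 0.73 (SE 0.27; edgeR adjusted p = 0.16), and with the epithelial markers as a covariate at 0.87 (edgeR adjusted p = 0.060). Cdc20 shares 53 exon bases with Elovl1 on the other strand, which was at 36.9 CPM in WT and 45.5 in KO.

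Cdk1, the kinase that starts mitosis, stood at 0.300, 0.246, 0.250, 0.251 and 0.395 CPM in WT and at 0.572, 1.01, 0.304, 0.429 and 1.54 CPM in KO. KO 5 and KO 2 were highest, and KO 3 overlapped WT. Cdk1 rose 2.66-fold (log2 fold change 1.41, SE 0.41; edgeR adjusted p = 0.038). The call was lost with KO 3 and KO 4 alone (0.33, edgeR adjusted p = 0.66). It was lost as well without any one of the 5 WT libraries or of KO 1, KO 2 and KO 5, where the log2 fold change ranged over all omissions from 1.01 to 1.62 and the edgeR adjusted p reached 0.0855.

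Birc5, survivin, is a subunit of the chromosomal passenger complex and an inhibitor of apoptosis. It stood at 0.191, 0.201, 0.273, 0.398 and 0.119 CPM in WT and at 0.548, 0.611, 0.326, 0.376 and 0.971 CPM in KO. KO 3 and KO 4 lay below WT 4. Birc5 rose 2.38-fold (log2 fold change 1.25, SE 0.37; edgeR adjusted p = 0.039), and stood at 0.56 with KO 3 and KO 4 alone (edgeR adjusted p = 0.53). Birc5 was no longer called on omission of WT 1, WT 2, WT 3, WT 5, KO 1, KO 2 or KO 5 (0.97 to 1.53 over all omissions, edgeR adjusted p up to 0.0913).

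The B-type cyclins, partners of Cdk1, were also highest in KO 1, KO 2 and KO 5 but did not pass. Ccnb2 stood at 0.109, 0.246, 0.364, 0.314 and 0.237 CPM in WT and at 0.835, 0.801, 0.217, 0.322 and 0.995 CPM in KO. KO 3 and KO 4 lay within the WT range. Its log2 fold change was 1.30 (SE 0.42; edgeR adjusted p = 0.058), and it was called by DESeq2 (adjusted p = 0.0253) and, by edgeR, on omission of KO 3 (1.52, adjusted p = 0.0147) and likewise of KO 4 (1.45, adjusted p = 0.0455). Ccnb1 was at 1.17 (SE 0.47; edgeR adjusted p = 0.11) and was called without KO 3 (1.41, adjusted p = 0.0339). The annotation holds 4 near-identical copies of Ccnb1, each at or under 0.0364 CPM in both groups.

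Ccna2, cyclin A2, which acts in S phase and G2, stood at 0.354, 0.738, 0.888, 0.649 and 0.454 CPM in WT and at 1.17, 1.6, 0.196, 0.564 and 1.42 CPM in KO. KO 3 was the lowest of all 10 libraries. The log2 fold change was 0.68 (SE 0.45; edgeR adjusted p = 0.33). With KO 3 and KO 4 alone it was -0.73 (edgeR adjusted p = 0.43). Ccna2 shares 510 exon bases with Exosc9 on the other strand, which was at 21.9 CPM in WT and 23.6 in KO.

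For the proliferation marker Mki67 and for Top2a, the topoisomerase that untangles chromosomes, the sign of the difference rested on KO 5. Mki67 stood at 0.545, 0.894, 0.569, 1.19 and 0.830 CPM in WT and at 0.620, 0.674, 0.717, 0.564 and 2.49 CPM in KO, so KO 1 to KO 4 lay within the WT range. Its log2 fold change was 0.32 (SE 0.42; edgeR adjusted p = 0.64) with all libraries and -0.33 without KO 5 (edgeR adjusted p = 0.43). Top2a stood at 0.382 to 1.07 CPM in WT and at 1.1, 0.653, 0.608, 0.322 and 2.58 CPM in KO, at 0.59 (SE 0.47; edgeR adjusted p = 0.42) with all libraries and -0.055 without KO 5 (edgeR adjusted p = 0.94).

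The last tested mitotic genes act at the spindle and did not pass. Tpx2, a spindle assembly factor that activates Aurka, was at 0.48 (SE 0.26; edgeR adjusted p = 0.22). Plk1, a kinase of mitotic entry and spindle assembly, was at 0.34 (SE 0.51; edgeR adjusted p = 0.69), and the spindle kinase Aurka at 0.04 (SE 0.37; edgeR adjusted p = 0.95). For all 3 the groups overlapped, and KO 5 was the highest library.

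Aurkb, Bub1, Ube2c and Cenpf had too few counts for the main test. Ube2c, the ubiquitin-conjugating enzyme of the anaphase-promoting complex, stood at 0.164, 0.134, 0.205, 0.209 and 0.0395 CPM in WT and at 0.477, 0.653, 0.196, 0.107 and 1.40 CPM in KO. KO 1, KO 2 and KO 5 were above all WT libraries, and KO 3 and KO 4 were not. DESeq2, which tested it, called it (log2 fold change 1.92, SE 0.62, adjusted p = 0.0155), and edgeR without a filter on low counts did not (adjusted p = 0.0508). The kinase Aurkb, of the chromosomal passenger complex, stood at 0.0273 to 0.189 CPM in WT and at 0.310, 0.211, 0.152, 0.322 and 0.592 CPM in KO, and was called by both (adjusted p = 0.026 in DESeq2 and 0.0492 in edgeR without the filter). The spindle checkpoint kinase Bub1 was at 0.0847 and 0.117 CPM and the kinetochore protein Cenpf at 0.169 and 0.202 CPM in WT and KO. Bub1 had 0 counts in 1 library, and 10 of the 15 mitotic genes had fewer than 10 counts in at least 1 library.

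**Figure D4:**
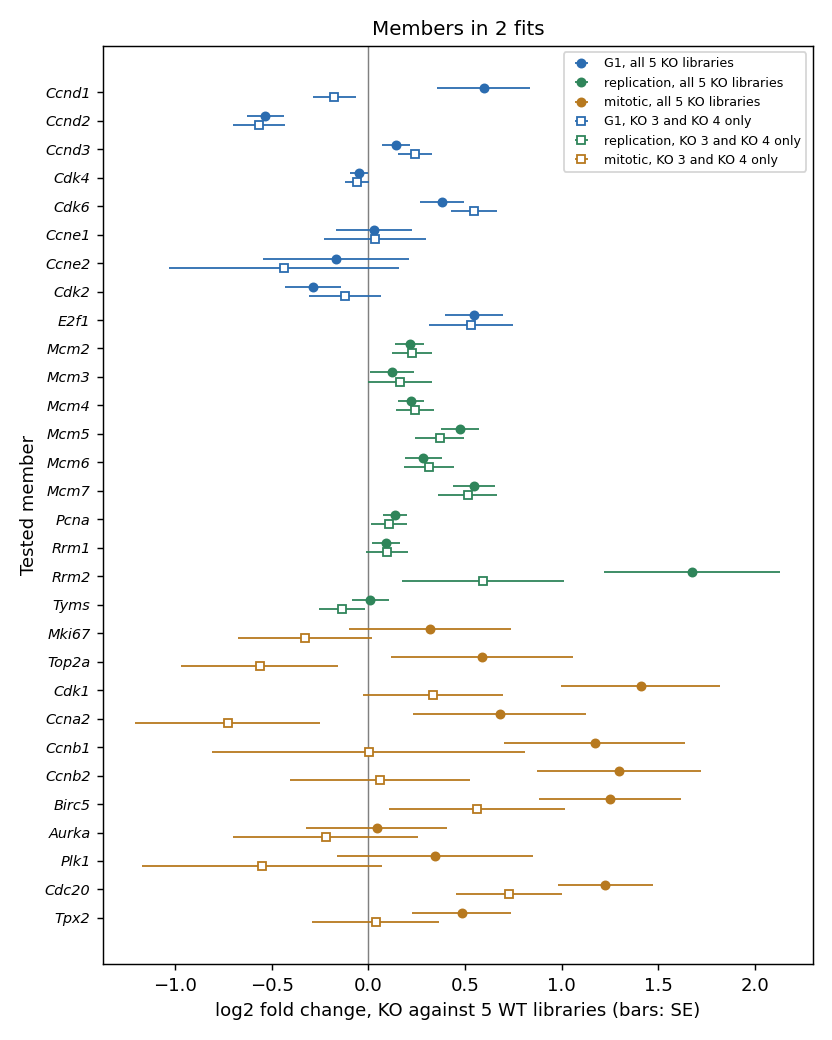
Log2 fold change (points) with its SE (bars) of the 30 tested genes, KO against the 5 WT libraries, with all 5 KO libraries (filled circles) and with KO 3 and KO 4 only (open squares); blue marks G1, green replication and amber mitotic genes. The open squares lie close to the filled circles for the Mcm genes and to their left for all 11 mitotic genes.

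Set side by side, the fit with KO 3 and KO 4 alone gave a median log2 fold change of 0.23 for the replication genes (0.22 with all libraries) and of 0.00 for the same 11 mitotic genes (0.68 with all libraries). In that fit 9 of 10 replication genes and 6 of 11 mitotic genes were above 0. It called 0 replication and 0 mitotic genes, where 2.86% of genes tested were called higher and 3.14% lower, and Mcm7 was at 0.51 (edgeR adjusted p = 0.080) and Mcm5 at 0.37 (edgeR adjusted p = 0.13). With the mean of the epithelial markers as a covariate and all libraries, the medians were 0.24 for replication and 0.23 for mitotic genes, and 3.56% of all genes tested were called higher and 4.22% lower. Mcm7 was then still called (0.485, edgeR adjusted p = 0.038) while Mcm5 (0.42, adjusted p = 0.055) and all mitotic genes were not. The covariate was at -0.467 to 1.929 in WT and at 4.903, 3.317, -0.428, 2.247 and 5.481 in KO 1 to KO 5. It was thus partly tied to genotype, and the fit cannot cleanly separate the 2. The difference between classes was not tested.

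G1 genes had no common direction. Ccnd2 (chr6:127125162-127152193, GRCm38), cyclin D2, stood at 72.5, 57.4, 53.6, 71.8 and 54.8 CPM in WT and at 39.1, 43.8, 42.3, 41.1 and 48.0 CPM in KO. All KO libraries were below all WT libraries, as for 6.16% of genes tested, and the KO values lay close together. Ccnd2 fell by 0.53 on the log2 scale (SE 0.10; edgeR adjusted p = 0.0035). It was called without any single library, with KO 3 and KO 4 alone (-0.57, adjusted p = 0.033) and with the epithelial covariate (-0.555, adjusted p = 0.014). It shares 372 exon bases with an antisense gene on the other strand at 0.0135 CPM in WT and 368 with another at 0.639 CPM.

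The other D-type cyclins took different courses. Ccnd1, cyclin D1, stood at 9.46, 9.37, 8.33, 8.76 and 8.14 CPM in WT and at 14.4, 16, 8.32, 7.19 and 20.7 CPM in KO 1 to KO 5. KO 1, KO 2 and KO 5 were above all WT libraries, KO 3 was among them and KO 4 was below, and the same 3 libraries were highest in the mitotic sum. Ccnd1 did not pass (log2 fold change 0.60, SE 0.24; edgeR adjusted p = 0.11), and was at -0.18 with KO 3 and KO 4 alone (adjusted p = 0.41). It was called on omission of KO 3 (0.725, edgeR adjusted p = 0.0428) and likewise of KO 4 (0.752, adjusted p = 0.0338). Ccnd1 shares 1100 exon bases with LTO1 on the other strand, at 17.0 CPM in both groups. Ccnd3 was at 58.0 ± 4.91 CPM over the WT pools and 64.1 ± 4.85 CPM over the KO pools (SD, n = 5; edgeR adjusted p = 0.20).

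Of their kinases, Cdk6 rose and Cdk4 did not pass. Cdk6 (chr5:3341485-3531008, GRCm38) stood at 11.3, 12.7, 14, 11.4 and 11.3 CPM in WT and at 17.0, 14, 15.6, 19.7 and 12.7 CPM in KO. Among the KO libraries, KO 4 was highest and KO 5 lowest, whereas the mitotic sum was highest in KO 5 and lowest in KO 4. WT 3 reached into the KO range, and WT 2 and KO 5 were both at 12.7 CPM after rounding. Cdk6 rose 1.30-fold (log2 fold change 0.38, SE 0.11; edgeR adjusted p = 0.041) and was at 0.545 with KO 3 and KO 4 alone (adjusted p = 0.024). The call was lost with the epithelial covariate (0.41, adjusted p = 0.088), and without WT 1, WT 2, WT 4, WT 5, KO 1, KO 3 or KO 4 (0.29 to 0.45 over all omissions, edgeR adjusted p up to 0.0978). Cdk4 was the most abundant of the 34 genes per kilobase of exon, at 26.1 CPM in WT, and stood at 84.7 ± 2.02 CPM over the WT pools and 81.9 ± 2.92 CPM over the KO pools (edgeR adjusted p = 0.50). Cdk4 shares 641 exon bases with Tspan31 on the other strand, at 99.0 CPM in WT and 113 in KO.

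E2f1 (chr2:154559407-154569892, GRCm38), a transcription factor that drives entry into S phase, stood at 1.23, 1.30, 1.14, 1.30 and 1.72 CPM in WT and at 1.79, 2.11, 2.24, 1.61 and 2.01 CPM in KO. Only WT 5 and KO 4 overlapped, and KO 3 was the highest library. E2f1 rose 1.46-fold (log2 fold change 0.54, SE 0.15; edgeR adjusted p = 0.030), was at 0.53 with KO 3 and KO 4 alone (adjusted p = 0.20) and was called with the epithelial covariate (0.655, adjusted p = 0.043). On omission of WT 2, WT 3, WT 4, KO 2, KO 3 or KO 5 it was no longer called (0.49 to 0.65 over all omissions, edgeR adjusted p up to 0.0726).

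The kinase of the next step, Cdk2, and its cyclins did not pass. Cdk2 was at 10.2 ± 2.27 CPM over the WT pools and 8.37 ± 1.19 CPM over the KO pools (SD, n = 5; log2 fold change -0.29, SE 0.14; edgeR adjusted p = 0.20). Ccne1, cyclin E1, was at 0.789 ± 0.0958 and 0.804 ± 0.197 CPM (edgeR adjusted p = 0.94). Ccne2 was at 0.278 ± 0.143 and 0.255 ± 0.0723 CPM, on 3 to 24 counts a library (edgeR adjusted p = 0.80). It shares 609 exon bases with Ints8 on the other strand, at 27.5 CPM in WT and 27.0 in KO.

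**Figure D5:**
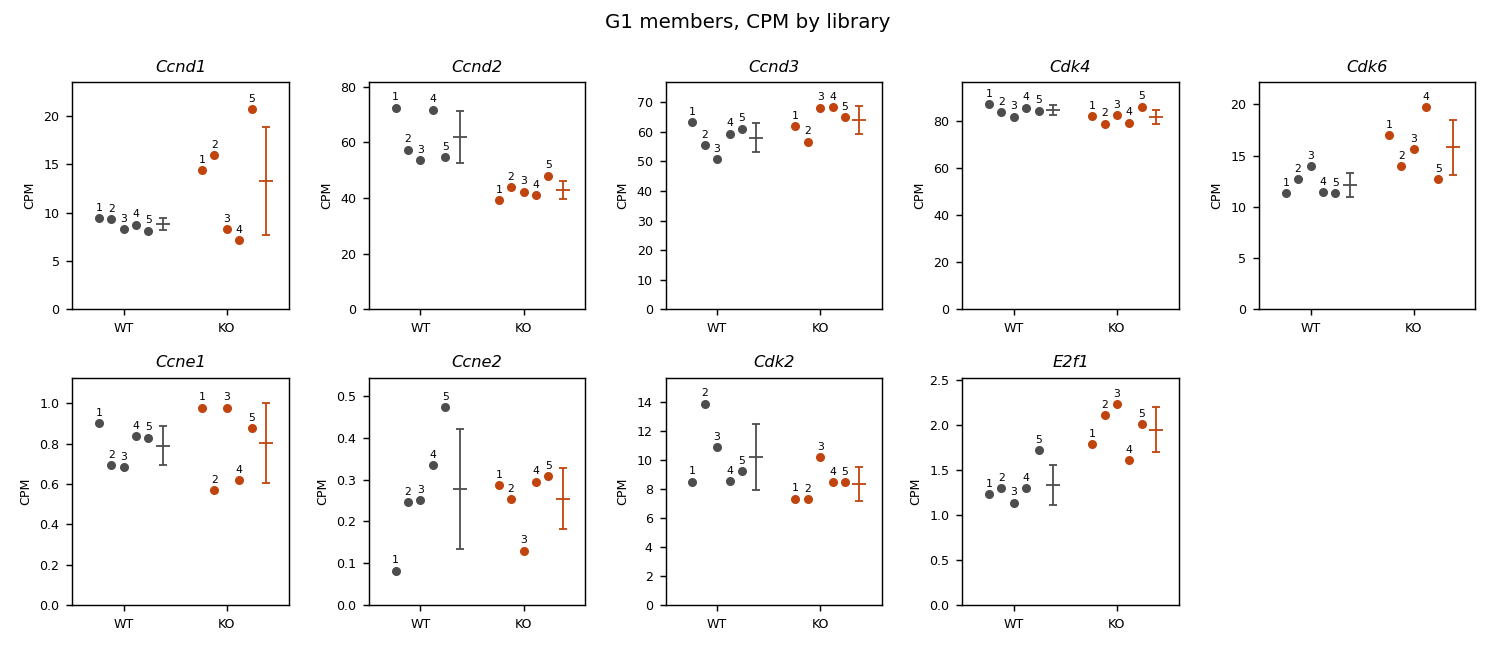
CPM of the 9 genes of G1 and of S phase entry in each library (points, numbered by library within genotype; WT grey, KO orange) with the group mean and SD (bars, n = 5); the vertical axes start at 0 and differ between panels. Ccnd2 is lower in all 5 KO libraries, while Ccnd1 is high in KO 1, KO 2 and KO 5 only.

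Further genes of the same machinery, 115 in 4 lists, were mostly not called. Over all genes tested, 7.59% rose and 7.73% fell. At an unadjusted p under 0.05, 15.4% were higher and 15.7% lower, and DESeq2 called 9.51% higher and 9.83% lower. Among other replication genes, 2 of 28 tested rose, none fell and the median was 0.13. At an unadjusted p under 0.05, 4 were higher and 1 lower, and DESeq2 called 3 higher and 0 lower. The counts of these replication genes called higher were near the shares over all genes. Prim1, the catalytic subunit of primase, went from 3.24 ± 0.275 CPM in WT to 4.26 ± 0.531 CPM in KO (SD, n = 5; log2 fold change 0.40, SE 0.11; edgeR adjusted p = 0.036). Rfc3, a subunit of the clamp loader, went from 4.62 ± 0.299 CPM in WT to 5.82 ± 0.490 CPM in KO with no overlap between groups (0.33, SE 0.09; edgeR adjusted p = 0.031). Neither was called with KO 3 and KO 4 alone (0.22 and 0.35, adjusted p = 0.43 and 0.13). Prim1 was lost without WT 2, WT 3, WT 4, WT 5, KO 1, KO 2, KO 4 or KO 5 (0.35 to 0.46 over all omissions), and Rfc3 on omission of WT 2, WT 4, WT 5, KO 1, KO 4 or KO 5 (0.29 to 0.37).

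Among other mitotic genes, 0 of 37 tested rose and 1 fell by edgeR, with a median of 0.30. At an unadjusted p under 0.05, 7 were higher and 3 lower, and DESeq2 called 4 higher and 2 lower. Of those higher by DESeq2, Melk and Pbk were not tested by edgeR. Their median difference from the WT mean repeated the order of libraries, at 0.78 in KO 5, 0.26 in KO 2, 0.22 in KO 1, -0.03 in KO 3 and -0.05 in KO 4. The gene that fell was Cdc25b, a phosphatase that activates Cdk1 and Cdk2, from 12.8 ± 1.32 CPM in WT to 10.6 ± 0.624 CPM in KO (SD, n = 5; log2 fold change -0.27, SE 0.08; edgeR adjusted p = 0.043). Cdc25b was not called with total counts only (-0.24, adjusted p = 0.0819), with KO 3 and KO 4 alone (-0.275, adjusted p = 0.227), or without WT 2, WT 3, WT 4, KO 1, KO 2, KO 4 or KO 5 (-0.315 to -0.225 over all omissions).

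Among other G1 control genes, 0 of 18 rose and 1 fell, with 1 higher and 1 lower at an unadjusted p under 0.05 and by DESeq2. It was E2f3, an activating E2F factor, which went from 13.3 ± 0.699 CPM in WT to 10.8 ± 1.02 CPM in KO (SD, n = 5; log2 fold change -0.30, SE 0.08; edgeR adjusted p = 0.020). All KO libraries were below all WT libraries for E2f3, opposite in direction to E2f1. E2f3 was not called without WT 3 (edgeR adjusted p = 0.051; -0.34 to -0.25 over all omissions) or with KO 3 and KO 4 alone (-0.29, adjusted p = 0.0862).

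Inhibitors of the cycle changed in both directions, with 2 of 12 tested higher, 1 lower and 9 not passed. Cdkn1a, the inhibitor p21, rose from 15 ± 2.73 CPM in WT to 26.4 ± 5.90 CPM in KO (SD, n = 5; log2 fold change 0.82, SE 0.16; edgeR adjusted p = 0.0055). Its KO values were 31.7, 23.7, 18.5, 25.4 and 32.7 CPM, highest in KO 5 and KO 1 and lowest in KO 3, which lay below WT 4 at 19.1 CPM. Btg2, an antiproliferative factor, stood at 43.1, 41.3, 37.9, 42.3 and 40 CPM in KO against 19.1 to 27.3 CPM in WT, a like level in every KO library (log2 fold change 0.82, SE 0.09; edgeR adjusted p = 1.7e-04). Cdkn1c, the inhibitor p57, fell by 0.46 (SE 0.08; edgeR adjusted p = 0.0030), from 50.6 ± 6.72 CPM in WT to 36.7 ± 1.59 CPM in KO, with no overlap between groups. With KO 3 and KO 4 alone, Btg2 was called (0.79, adjusted p = 0.0054) and Cdkn1a (0.555, adjusted p = 0.0963) and Cdkn1c (-0.43, adjusted p = 0.0605) were not.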

How the data were processed

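RNA was measured in 10 pools of corneal endothelial peelings with a stranded poly(A) library kit and paired-end sequencing, per the labels' protocols. The authors deposited 1 table of read counts per gene with GENCODE M21 symbols, and the values are whole numbers with no normalization. Per the submitters' processing notes, Trim Galore 0.6.4, cutadapt 2.4, HISAT2 2.1.0 and featureCounts of Subread 1.6.4 were used with build GRCm38.p6. For the strand setting, the sources used here give nothing.

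From the counts, edgeR 4.0.16 (R 4.3.3) was run with filterByExpr (minimum count 10, minimum total count 15), TMM scaling and the quasi-likelihood test of 5 KO against 5 WT libraries. Adjusted p-values are Benjamini-Hochberg over all 17729 genes tested, with a common dispersion that corresponds to 16.3% variation between pools. SEs are the log2 fold change over the square root of F. CPM used TMM-scaled totals, heat map values a prior count of 2. Pairs of libraries within a genotype gave a chi-square of 14.7 to 87.5 for each degree of freedom, so no library was taken for a copy of another. Pools were the replicates, so p-values measure the spread between pools. The fits were tested on simulated counts.

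Alternatives were DESeq2 1.42.0, other size factors, other filters on low counts (none, or at least 1 CPM in at least 5 libraries), the replicate number as a block, the mean log2 CPM of 22 epithelial markers as a covariate, KO 3 and KO 4 alone against WT, and each library left out in turn. The 34 genes, the gene lists, the markers and these alternatives were chosen with earlier results of these data known. Named genes were all 34, and in each further list the called genes with the smallest p, up to 3 in each direction. Near-identical copies had at least 95% identity over at least 200 bases. Promoter windows came from RefSeq. Those of the called replication genes that had a window were printed by rule, and those of 3 mitotic genes were added after their values were seen.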

Additional observations from a re-analysis of the deposited data

Results flagged for a closer look

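In each genotype, the 5 CPM values of each gene were examined. So were the 5 values of each class for its median log2 difference from the WT mean and for its summed CPM. The highest and the lowest value were compared with the other 4, and a value was listed where its gap to the nearest one was above 0.71 of the range. Of 80 groups of 5 values, 2 were listed, and chance lists about 1 in 20 groups. E2f1 was at 1.72 CPM in WT 5, where the next WT library was at 1.30 and the lowest at 1.14 CPM. Mki67 was at 2.49 CPM in KO 5, where the next KO library was at 0.717 and the lowest at 0.564 CPM.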

How the results depend on the processing

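Of the 10 calls, all 10 were kept with DESeq2, with DESeq2 size factors in edgeR and with total counts only, 8 without a filter on low counts (not E2f1 and Mcm4), 6 with at least 1 CPM in at least 5 libraries (which does not test the scarcest genes), 3 with the epithelial covariate (Ccnd2, E2f1, Mcm7), 2 with KO 3 and KO 4 alone (Ccnd2, Cdk6) and 4 with every single library left out (Ccnd2, Mcm5, Mcm7, Cdc20). Counts of G1 genes called higher were 1 without a filter, 1 with the covariate, 1 with KO 3 and KO 4 alone and 0 to 2 over single omissions, and their median log2 fold change was 0.144 under the CPM filter and -0.046 to 0.136 over single omissions. Replication genes called higher numbered 1 with the covariate, 0 with KO 3 and KO 4 alone and 2 to 4 over single omissions. Mitotic genes called higher numbered 6 by DESeq2, Ube2c and Aurkb included. They numbered 0 under the CPM filter, with the covariate and with KO 3 and KO 4 alone, and 1 to 5 over single omissions. The median of the mitotic genes with KO 3 and KO 4 alone was -0.111 over the 12 genes then tested, Cenpf included. In the further lists, other G1 control genes called higher were 1 by DESeq2 and with KO 3 and KO 4 alone (0 to 1 over single omissions), and lower 0 with the covariate and with KO 3 and KO 4 alone (0 to 1). Other replication genes called higher were 0 without a filter, with the covariate and with KO 3 and KO 4 alone (0 to 3). Other mitotic genes called higher were 4 by DESeq2 and 1 without a filter (0 to 3), and lower 2 by DESeq2 and 0 with total counts only, no filter, the covariate or KO 3 and KO 4 alone (0 to 2). Inhibitors called higher were 4 by DESeq2 and 1 with KO 3 and KO 4 alone, and lower 0 with KO 3 and KO 4 alone. The sign turned, for genes not called with all libraries, with KO 3 and KO 4 alone for Ccnd1 (-0.176), Tyms (-0.136), Mki67 (-0.329), Top2a (-0.562), Ccna2 (-0.728), Aurka (-0.222) and Plk1 (-0.55), and with the covariate for Tyms (-0.078), Mki67 (-0.222), Top2a (-0.256), Ccna2 (-0.41), Aurka (-0.21) and Plk1 (-0.466). Over single omissions, values of both signs were found for Ccne1 (-0.053 to 0.136), Ccne2 (-0.372 to 0.116), Tyms (-0.038 to 0.057), Mki67 (-0.326 to 0.505), Top2a (-0.055 to 0.809), Aurka (-0.261 to 0.213) and Plk1 (-0.122 to 0.571). Apart from fewer samples or genes, the cause was not tested.

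The labels do not say that replicate numbers pair the pools. Deviations of same-numbered libraries correlated at 0.024, -0.07, -0.249, 0.085 and -0.416, and no library correlated best with its own number. These correlations cannot decide whether the pools were paired, because epithelial transcripts also differed widely between libraries. With the replicate block, where 4.23% of genes tested were called higher and 5.31% lower, 5 of the 10 calls were kept (Ccnd2, Mcm5, Mcm7, Cdk1, Cdc20), with 0 G1 and 2 replication genes higher, and in the further lists 0 other G1 control genes lower, 0 other replication genes higher and 0 other mitotic genes lower. Depth limits the mitotic genes most: 10 of 15 had fewer than 10 counts in some library.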
